A study of Mus musculus with 12 samples.

Results

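The suppressor of cytokine signalling (SOCS) family consists of 8 genes in the mouse, Cish and Socs1 to Socs7, and their mRNA expression was followed in pancreatic islets of mice with and without the prolactin receptor. Probe sets that carried the symbol of a member and no other symbol were taken, which gave 12 of the 35511 probe sets on the array, and of several for a gene the one reading highest on average across the 12 arrays stood for it. All 8 members were measured, among 19938 genes that had such a probe set. The groups were non-pregnant (NP) Prlr+/+ mice, Prlr+/+ mice on pregnancy day 9.5 (P9.5), NP Prlr-/- mice and P9.5 Prlr-/- mice, with 3 arrays in each group. All were adult mice of the 129Sv background, and the text of the study gives their ages in weeks with slightly different ranges in different places. Prlr-/- mice lack the receptor in the whole body, so their islets and all other tissues were without it. Pregnant Prlr-/- mice were given a progesterone pellet, which the methods describe for this group only, so in the pregnant groups genotype and pellet cannot be told apart. The labels name the samples as biological replicates and do not say whether islets of several animals were pooled.

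Binding of prolactin or placental lactogen to the prolactin receptor activates the kinase JAK2, which phosphorylates the transcription factor STAT5. STAT5 moves to the nucleus and switches on target genes, among them genes of the SOCS family. Their proteins hold an SH2 domain that binds phosphorylated tyrosines and a SOCS box that recruits a ubiquitin ligase, and they dampen the same receptors, which closes a feedback loop. During pregnancy, lactogenic hormones act on the beta cells, which adapt to the higher demand for insulin.

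The DNA sequence bound by STAT5, TTCNNNGAA, was searched in RefSeq promoter windows on GRCm38.p6, which run from 250 bases before to 50 bases after the annotated start of a gene. The motif is its own reverse complement, so a single search covers both strands. Windows of 4 of the 8 members were searched, those of Cish, Socs1, Socs3 and Socs4. The promoters of Socs2, Socs5, Socs6 and Socs7 were not searched, so the motif was not tested there. The search among the members also skipped the windows of 1 chromosome, which the share over all windows given below includes. The window of Cish held 2 matches, TTCCTGGAA from base 1 and TTCTTGGAA from base 12 after the start. The window of Socs3 held TTCTTAGAA, whose first base lies 154 bases before the start, and those of Socs1 and Socs4 held no match. Of all 32851 windows of this length, 8.30% held at least 1 match and 0.457% held 2 or more. The stretches around the matches are shown because Cish was called in 3 comparisons and Socs3, by its highest probe set, in none, with the matching bases in capitals. They are 30 bases long and read from 5′ to 3′ on the strand of the gene, at chr9:107296654-107296683 (plus strand) for Cish and chr11:117969502-117969531 (minus strand) for Socs3.
Cish: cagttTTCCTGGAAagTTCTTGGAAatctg
Socs3: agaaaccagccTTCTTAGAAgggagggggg
A match is a description of the letters and was not measured as a binding site here.

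Expression is given on the log2 scale of robust multichip analysis (RMA), rounded by the authors to steps of 0.1, so that a difference of 1 is a doubling. A probe set was called higher or lower when it differed by a factor of 1.5 or more and had an adjusted p under 0.05 from limma over all probe sets. The correlation across probe sets was 0.972 to 0.988 between arrays of a stage and 0.931 to 0.969 between stages. Replicate 2 of the P9.5 Prlr+/+ group stood apart in Xist, which silences the second X chromosome of females, with 3.8 against 10 to 10.7 in the other 11 arrays. The Y-linked genes Kdm5d, Uty and Eif2s3y lay between 3.1 and 4.6 in all 12 arrays, that array included. The calls of the members and of the related genes that changed when this array was left out are therefore given beside the results. As a check of the tissue, the mean of 15 beta cell markers lay between 10.44 and 10.68 in all arrays. None of them was called between the genotypes, where few of all probe sets were called either. That share was 0.0929% higher and 0.00845% lower in NP islets, and 0.0253% and 0.206% at P9.5. In NP islets 11 of the 15 were lower and 4 higher in Prlr-/- mice, with a median difference of -0.10. At P9.5, 7 were higher and 6 lower. Single markers did move with pregnancy. In pregnant Prlr+/+ islets Pcsk1 (0.77) and Ucn3 (0.60) were called higher, against 5.73% of all probe sets. Nkx6-1 (-0.73), Mafa (-0.67) and Nkx2-2 (-0.60) were called lower there, against 4.21%. In pregnant Prlr-/- islets Ucn3 (0.60) was called higher, against 7.44%. Without replicate 2 of the P9.5 Prlr+/+ group the call of Ucn3 in Prlr+/+ islets was lost (0.57, adjusted p = 0.0762 from limma). The mean of 14 acinar markers was less even, from 9.99 to 10.44 in NP Prlr+/+, 9.29 to 10.34 in P9.5 Prlr+/+, 10.27 to 11.09 in NP Prlr-/- and 8.91 to 10.34 in P9.5 Prlr-/- islets. No probe set carried the symbol Prlr alone, so the targeted gene was not checked here. The study reports Prlr as the only gene that differed between the genotypes in NP islets. The fit here, over all 4 groups, called 33 probe sets higher and 3 lower in NP Prlr-/- islets. These are not counts of genes, since 12101 of the 35511 probe sets carry no symbol. In whole islets, fewer cells of a type and less RNA per cell cannot be told apart.

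Cish and Socs2 were highest in islets of pregnant Prlr+/+ mice and were not called higher in islets of pregnant Prlr-/- mice. Socs4 was higher and Socs7 lower at P9.5 in both genotypes, and Socs1, Socs3, Socs5 and Socs6 passed the test in no comparison by their highest probe sets. The 4 group means spanned 2.53 for Cish, 1.97 for Socs2 and 0.80 each for Socs4 and Socs7, and between 0.13 and 0.27 for the other 4 members.

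**Figure D1:**
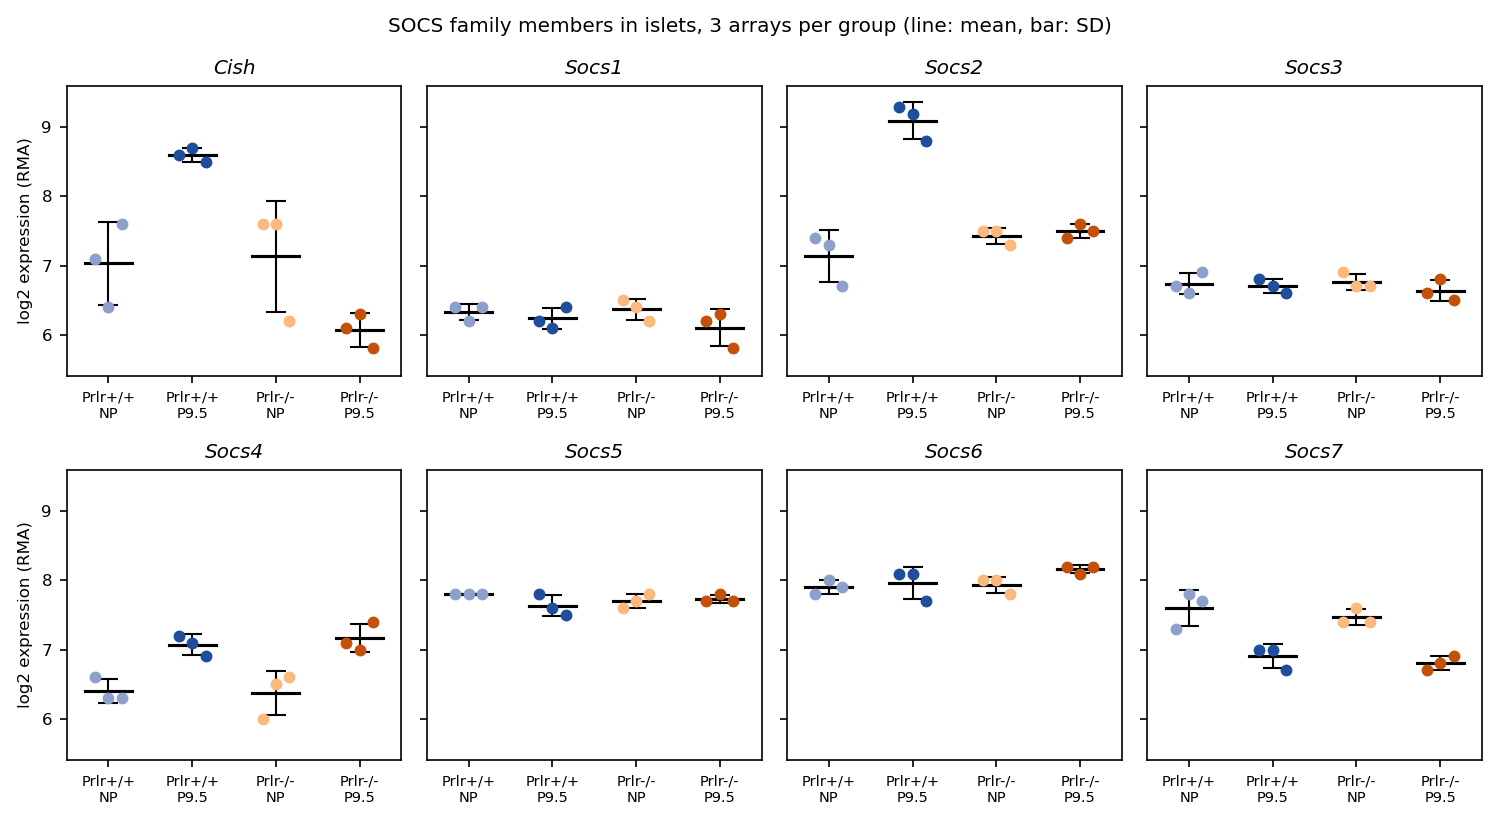
Expression of the 8 SOCS family members in islets on the log2 RMA scale (vertical axis) in the 4 groups (horizontal axis), with 1 point per array, lines for the means and bars for the SD (n = 3). The P9.5 Prlr+/+ arrays lie at 8.5 to 8.7 for Cish and 8.8 to 9.3 for Socs2, above all other arrays, and levels are not compared between genes.

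Socs2 encodes the inhibitor that restrains growth hormone receptor signalling, and mice without it grow larger than normal. In NP Prlr+/+ islets it was at 7.4, 7.3 and 6.7 in replicates 1 to 3, and in P9.5 Prlr+/+ islets at 9.3, 9.2 and 8.8. In NP Prlr-/- islets it was at 7.5, 7.5 and 7.3, and in P9.5 Prlr-/- islets at 7.4, 7.6 and 7.5. All 3 arrays of pregnant Prlr+/+ mice thus lay above the other 9, which covered a range of 6.7 to 7.6 and overlapped each other. The pregnancy difference in Prlr+/+ islets was 1.97 on the log2 scale, a 3.91-fold higher expression (standard error 0.180, adjusted p = 0.000163 from limma). In Prlr-/- islets the pregnancy difference was 0.07, with a 95% interval of -0.33 to 0.46 (adjusted p = 0.802 from limma).

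At P9.5, Socs2 was 3.03-fold lower in Prlr-/- than in Prlr+/+ islets, with a log2 difference of -1.60 (adjusted p = 0.00195 from limma, standard error 0.180). Before pregnancy the genotypes differed by 0.30, with a 95% interval of -0.09 to 0.69. Socs2 was the member whose pregnancy difference itself differed between the genotypes by the test of the interaction, at -1.90 on the log2 scale (standard error 0.254, adjusted p = 0.0171 from limma). Without Prlr+/+ P9.5 replicate 2 the interaction was -1.85 with an adjusted p of 0.0533 from limma, and the call was also lost without Prlr+/+ P9.5 replicate 1, Prlr-/- NP replicate 1, or replicate 1 or 3 of the P9.5 Prlr-/- group, with adjusted p up to 0.0691. Without Prlr+/+ P9.5 replicate 2 the pregnancy difference in Prlr+/+ islets was 1.92 and the genotype difference at P9.5 was -1.55, with adjusted p of 0.00124 and 0.0165 from limma.

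Socs2 had a second probe set, which read lower and was likewise highest in P9.5 Prlr+/+ islets. It was at 6.6, 6.3 and 6.5 in NP Prlr+/+ islets and at 7.6, 7.7 and 7.4 in P9.5 Prlr+/+ islets. In Prlr-/- islets it was at 6.7, 6.6 and 6.5 in NP and at 6.4, 6.5 and 6.2 in P9.5 mice. The arrays of pregnant Prlr+/+ mice again lay above all others. The pregnancy difference was 1.10 in Prlr+/+ islets and -0.23 in Prlr-/- islets, and the genotype difference at P9.5 was -1.20. The interaction of this probe set was -1.33 (standard error 0.169, adjusted p = 0.0122 from limma), and -1.27 without Prlr+/+ P9.5 replicate 2 (adjusted p = 0.0343 from limma).

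Cish encodes the founding member of the family, an inhibitor of STAT5 signalling that STAT5 itself induces. In NP Prlr+/+ islets it was at 7.1, 6.4 and 7.6 in replicates 1 to 3, and in P9.5 Prlr+/+ islets at 8.6, 8.7 and 8.5. In NP Prlr-/- islets it was at 7.6, 7.6 and 6.2, and in P9.5 Prlr-/- islets at 6.1, 6.3 and 5.8. The pregnant Prlr+/+ arrays lay above all others. The pregnant Prlr-/- arrays lay below the NP arrays of both genotypes, except that NP Prlr-/- replicate 3 (6.2) fell among them.

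The NP groups varied widely for this gene, with 7.03 ± 0.60 (SD, n = 3) for Prlr+/+ against 7.13 ± 0.81 (SD, n = 3) for Prlr-/- islets. The pregnant Prlr+/+ group was tight, at 8.60 ± 0.10 (SD, n = 3), and the pregnant Prlr-/- group was at 6.07 ± 0.25 (SD, n = 3). The pooled SD within groups was 0.52, larger than that of 99.7% of all genes, whereas it lay between 0.10 and 0.24 for the other 7 members.

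In Prlr+/+ islets Cish was 2.96-fold higher at P9.5, a log2 difference of 1.57 (standard error 0.361, adjusted p = 0.0102 from limma), which was 1.52 without Prlr+/+ P9.5 replicate 2 (adjusted p = 0.0379 from limma). At P9.5 it was 5.79-fold lower in Prlr-/- than in Prlr+/+ islets, a log2 difference of -2.53 (standard error 0.361, adjusted p = 0.0117 from limma). This difference was the widest between any pair of groups among the members. Without Prlr+/+ P9.5 replicate 2 it was -2.48 with an adjusted p of 0.0649 from limma, and the call was also lost without replicate 1 of that group and without replicate 1 or 3 of the P9.5 Prlr-/- group, although the difference stayed between -2.65 and -2.40.

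Before pregnancy, Cish differed between the genotypes by 0.10, with a 95% interval of -0.69 to 0.89. In Prlr-/- islets Cish was called lower at P9.5 than in NP mice, by -1.07 (standard error 0.361, adjusted p = 0.0406 from limma), although the groups overlapped. When each array was left out in turn, the difference lay between -1.53 and -0.83, and the call was lost in 8 of 12 fits and kept without replicate 2 or 3 of the NP Prlr+/+ group, replicate 3 of the NP Prlr-/- group or replicate 2 of the P9.5 Prlr-/- group. The interaction of Cish was -2.63 (standard error 0.511), with a 95% interval of -3.75 to -1.52, and missed the threshold at an adjusted p of 0.111 from limma. It passed without Prlr-/- NP replicate 3, the array at 6.2, where it was -3.10 with an adjusted p of 0.0164 from limma.

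**Figure D2:**
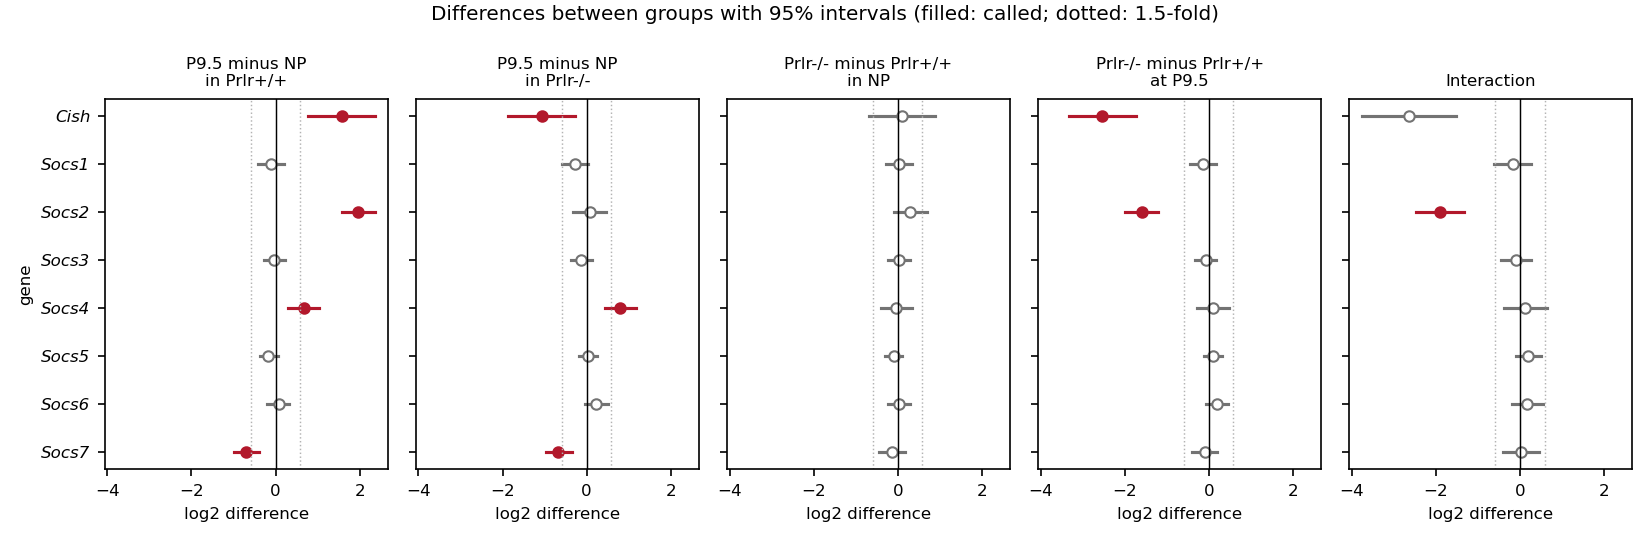
Log2 differences between groups (horizontal axis) with 95% intervals for the 8 members (vertical axis) in the 4 comparisons and their interaction, filled where called, with dotted lines at a 1.5-fold change. Cish and Socs2 stand at 1.57 and 1.97 in pregnant Prlr+/+ islets and at -2.53 and -1.60 between the genotypes at P9.5, while no member is called in NP mice.

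Socs1 and Socs3 encode the inhibitors that block the JAK kinases themselves and limit interferon and interleukin 6 signalling. Socs1 was at 6.4, 6.2 and 6.4 in NP Prlr+/+ islets, 6.2, 6.1 and 6.4 in P9.5 Prlr+/+ islets, 6.5, 6.4 and 6.2 in NP Prlr-/- islets and 6.2, 6.3 and 5.8 in P9.5 Prlr-/- islets. All 4 groups overlapped, and the pregnancy difference was -0.10 (95% interval -0.41 to 0.21) in Prlr+/+ and -0.27 (95% interval -0.58 to 0.04) in Prlr-/- islets. Socs3 was at 6.7, 6.6 and 6.9 in NP Prlr+/+ islets, 6.8, 6.7 and 6.6 in P9.5 Prlr+/+ islets, 6.9, 6.7 and 6.7 in NP Prlr-/- islets and 6.6, 6.8 and 6.5 in P9.5 Prlr-/- islets. Its groups overlapped too, with a pregnancy difference of -0.03 (95% interval -0.28 to 0.22) in Prlr+/+ and -0.13 (95% interval -0.38 to 0.12) in Prlr-/- islets. None of these intervals reached the size of the difference seen for Socs2.

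The second probe set of Socs3, which the annotation ties to a single transcript record, gave another picture. It was at 6.0, 5.8 and 6.1 in NP and 5.7, 5.6 and 5.7 in P9.5 Prlr+/+ islets, and at 5.9, 6.2 and 6.2 in NP and 5.5, 5.4 and 5.5 in P9.5 Prlr-/- islets. The P9.5 arrays lay below the NP arrays in both genotypes. The difference was called in Prlr-/- islets (-0.63, standard error 0.110, adjusted p = 0.00154 from limma) and not in Prlr+/+ islets (-0.30, adjusted p = 0.0717 from limma). The test of the difference between the genotypes gave -0.33 with an adjusted p of 0.511 from limma.

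Socs4 encodes a member tied to the epidermal growth factor receptor. It was at 6.6, 6.3 and 6.3 in NP Prlr+/+ islets and 7.2, 7.1 and 6.9 in P9.5 Prlr+/+ islets. Its values in Prlr-/- islets were 6.0, 6.5 and 6.6 in NP and 7.1, 7.0 and 7.4 in P9.5 mice. The 6 pregnant arrays lay above the 6 NP arrays without overlap, whatever the genotype. The difference was 0.67 (standard error 0.168, adjusted p = 0.0157 from limma) in Prlr+/+ and 0.80 (standard error 0.168, adjusted p = 0.00430 from limma) in Prlr-/- islets, and their difference was 0.13, with a 95% interval of -0.39 to 0.65. In Prlr+/+ islets the call was lost without Prlr+/+ P9.5 replicate 2 (0.65, adjusted p = 0.0503 from limma), and likewise without replicate 1 of that group or replicate 2 or 3 of the NP Prlr+/+ group, with adjusted p up to 0.0610.

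Socs7 encodes a member that binds components of insulin signalling. It was at 7.3, 7.8 and 7.7 in NP Prlr+/+ islets and 7.0, 7.0 and 6.7 in P9.5 Prlr+/+ islets. In Prlr-/- islets it was at 7.4, 7.6 and 7.4 in NP and 6.7, 6.8 and 6.9 in P9.5 mice. Here the 6 pregnant arrays lay below the 6 NP arrays. The difference was -0.70 (standard error 0.139, adjusted p = 0.00491 from limma) in Prlr+/+ and -0.67 (standard error 0.139, adjusted p = 0.00421 from limma) in Prlr-/- islets, and their difference was 0.03, with a 95% interval of -0.40 to 0.46. Without Prlr+/+ P9.5 replicate 2 the difference in Prlr+/+ islets was -0.75 (adjusted p = 0.0130 from limma). With arrays centred on their medians, which moved the median of all probe sets in the Prlr-/- pregnancy comparison by 0.17, Socs7 was at -0.50 there, under the fold change minimum.

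Socs5 and Socs6 encode the members linked to epidermal growth factor receptor and to KIT and insulin receptor signalling, in that order. Socs5 lay between 7.5 and 7.8 in all 12 arrays and was the member with the smallest pooled SD, 0.10. Its pregnancy difference was -0.17 (95% interval -0.38 to 0.05) in Prlr+/+ and 0.03 (95% interval -0.18 to 0.25) in Prlr-/- islets. Socs6 lay between 7.7 and 8.2 by its highest probe set, with a pregnancy difference of 0.07 (95% interval -0.20 to 0.33) in Prlr+/+ and 0.23 (95% interval -0.03 to 0.50) in Prlr-/- islets.

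The second probe set of Socs6 carries the same transcript records as the highest and differed from it. It was at 7.4, 7.4 and 7.1 in NP and 7.9, 8.1 and 7.6 in P9.5 Prlr+/+ islets, and at 6.8, 7.3 and 7.3 in NP and 8.0, 7.7 and 8.1 in P9.5 Prlr-/- islets. The 6 pregnant arrays lay above the 6 NP arrays. The difference was called in Prlr-/- islets (0.80, standard error 0.174, adjusted p = 0.00528 from limma). In Prlr+/+ islets it was 0.57 with an adjusted p of 0.0379 from limma, a 1.48-fold change and so under the minimum. The remaining probe set lay between 3.5 and 4.0 in all arrays and was called in no comparison.

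**Figure D3:**
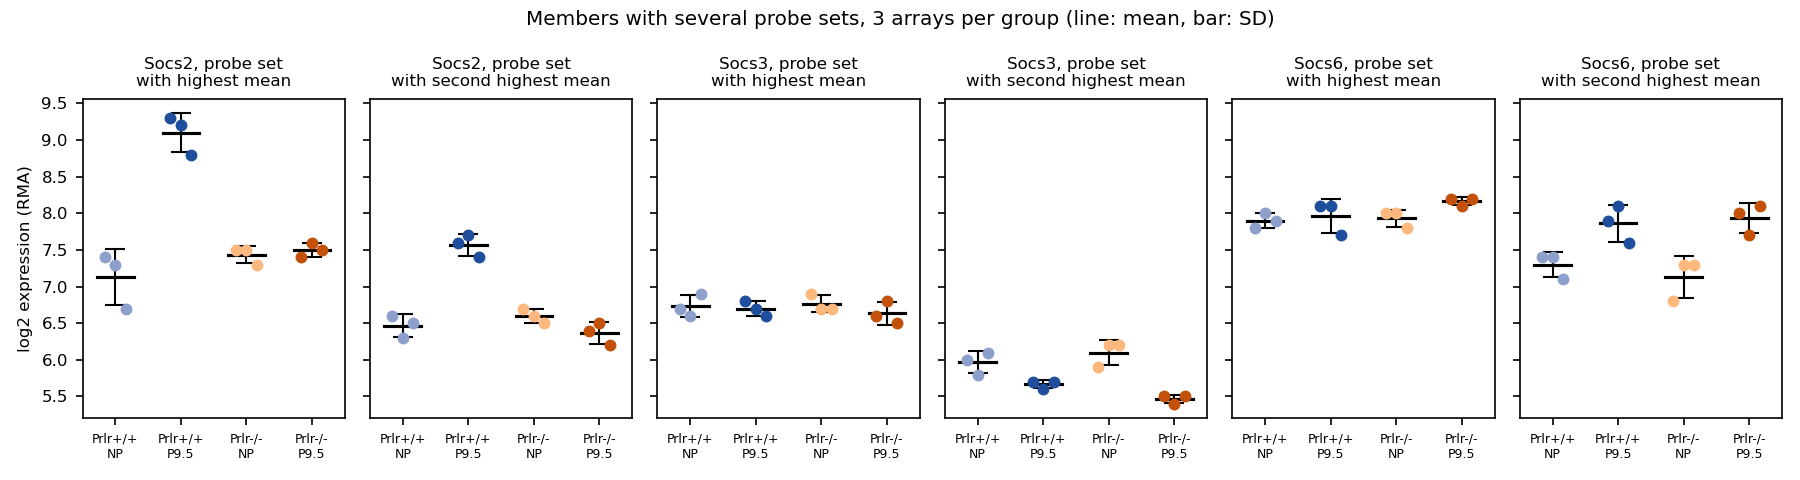
Log2 RMA expression (vertical axis) of the highest and the next probe set of Socs2, Socs3 and Socs6 in the 4 groups (horizontal axis), with 1 point per array, lines for the means and bars for the SD (n = 3). Both probe sets of Socs2 are highest in P9.5 Prlr+/+ islets, whereas only the lower probe sets of Socs3 and Socs6 separate the P9.5 from the NP arrays in both genotypes.

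Counted over the family, 3 of 8 members were called higher and 1 lower in pregnant Prlr+/+ islets, against 5.73% of all probe sets called higher and 4.21% called lower. Of the 8 members, 1 was called higher and 2 were called lower at P9.5 in Prlr-/- islets, against 7.44% and 7.09% of all probe sets. Only Socs4 and Socs7 were called in the same direction in both genotypes. The median difference of the members was 0.02 in Prlr+/+ and -0.05 in Prlr-/- islets, where that of all genes was -0.07 in both, so the family as a whole had no common direction.

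Between the genotypes, none of the 8 members was called in NP mice by limma, and none had an unadjusted p under 0.05, with 0.0929% of all probe sets called higher and 0.00845% called lower. At P9.5, 2 of 8 were called lower in Prlr-/- islets and none higher, against 0.206% and 0.0253% of all probe sets. Of these, Cish had already been reported by the study as lower in Prlr-/- islets at P9.5, on these arrays and by quantitative RT-PCR. For the interaction, 1 of 8 was called lower and none higher, against 0.0788% and 0% of all probe sets. An unadjusted p under 0.05 from limma was found for 2 of 8, a share that was not counted over all probe sets. Without Prlr+/+ P9.5 replicate 2, the counts were 3 called in pregnant Prlr+/+ islets, 2 in pregnant Prlr-/- islets, 1 between the genotypes at P9.5 and 0 for the interaction. Comparisons that share a group share its arrays, and an exact permutation test of 3 arrays against 3 could not give a p under 0.1.

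In order of the group means, Cish ran from P9.5 Prlr-/- over NP Prlr+/+ and NP Prlr-/- to P9.5 Prlr+/+ islets, and of the neighbours in this order the NP groups differed by 0.10, well within the pooled SD of 0.52. For Socs2 the order was NP Prlr+/+, NP Prlr-/-, P9.5 Prlr-/- and P9.5 Prlr+/+, and the first 3 overlapped. For Socs4 and Socs7 the neighbours within a stage did not differ beyond their spread, and the step lay between the stages.

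Of the listed ubiquitin ligase subunits, Eloc, Cul2 and Rbx1 were called higher in pregnancy in both genotypes, and Cul5 and Rnf7 were not called in Prlr+/+ islets. SOCS proteins bind the elongin subunits Eloc and Elob. Ubiquitin ligases with elongins hold the scaffold Cul5 or Cul2 and the RING protein Rnf7 or Rbx1. Of 9 measured subunits and helpers of these ligases, 3 were called higher in pregnant Prlr+/+ islets and 4 in pregnant Prlr-/- islets, against 5.73% and 7.44% of all probe sets. None was called lower, and none was called between the genotypes or for the interaction. Eloc rose from 8.3, 8.1 and 8.1 in NP to 8.9, 9.0 and 8.8 in P9.5 Prlr+/+ islets, a difference of 0.73 (standard error 0.123, adjusted p = 0.00210 from limma). Eloc also rose in Prlr-/- islets, from 7.8, 8.2 and 8.0 to 8.9, 8.6 and 8.8, a difference of 0.77 (standard error 0.123, adjusted p = 0.000986 from limma). Arrays of the stages did not overlap in either genotype.

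Cul2 and Rbx1 were also called higher in both, with differences of 0.60 each in Prlr+/+ and of 0.73 and 0.60 in Prlr-/- islets. Without replicate 2 of the P9.5 Prlr+/+ group Cul2 fell under the minimum fold change in Prlr+/+ islets, at 0.48, and Eloc and Rbx1 were still called. Cul5 was called in Prlr-/- islets (0.67, adjusted p = 0.00282 from limma) and in Prlr+/+ islets did not reach the minimum fold change, at 0.50 (adjusted p = 0.0176 from limma). The median difference of the 9 genes was 0.23 in Prlr+/+ and 0.60 in Prlr-/- islets, where that of all genes was -0.07. Rnf7, singled out after its values were seen, scattered from 4.5 to 6.6 in NP Prlr-/- islets and lay between 6.8 and 7.3 in P9.5 Prlr-/- islets, a difference of 1.60 that missed the threshold (standard error 0.582, adjusted p = 0.0532 from limma) and passed it when Prlr+/+ P9.5 replicate 2 was left out (adjusted p = 0.0370 from limma).

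Of 27 other proteins with a SOCS box, none was called lower in pregnancy. In pregnant Prlr+/+ and pregnant Prlr-/- islets 1 was called higher, against 5.73% and 7.44% of all probe sets. This was Wsb1, a substrate receptor of the same kind of ligase, with differences of 0.77 in Prlr+/+ and 0.80 in Prlr-/- islets (adjusted p = 0.000651 and 0.000236 from limma). It was at 6.8, 6.8 and 6.9 in NP and 7.5, 7.6 and 7.7 in P9.5 Prlr+/+ islets, so that the stages did not overlap. Without replicate 2 of the P9.5 Prlr+/+ group Wsb1 was still called, and Asb9 was called lower in Prlr+/+ islets (-0.62).

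Upstream of the family, 9 of 11 listed JAK kinases and STAT factors were measured. In any comparison 1 was called, higher in pregnant Prlr+/+ islets, against 5.73% of all probe sets. Stat4, a factor best known from T cells, was at 4.3 in all 3 NP Prlr+/+ arrays and at 5.1, 5.2 and 5.0 in P9.5 Prlr+/+ islets, a difference of 0.80 (standard error 0.118, adjusted p = 0.00113 from limma), and was still called without replicate 2 of the latter. Jak2, the kinase bound to the prolactin receptor, lay between 7.4 and 7.9 in all 12 arrays, Stat5a between 6.9 and 7.3 and Stat5b between 7.9 and 8.3. Neither Jak2 nor the STAT5 genes were called in any comparison. Stat5b was lower in pregnant Prlr+/+ islets by -0.33 with no overlap of the stages (adjusted p = 0.02 from limma). This is a 1.26-fold change and so under the minimum. In Prlr-/- islets Stat5b was at -0.10 (adjusted p = 0.401 from limma).

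Of 23 listed receptors and adaptors that SOCS proteins regulate, 20 were measured. In pregnant Prlr+/+ islets 3 were called lower, against 4.21% of all probe sets, the interleukin 6 receptor Il6ra (-1.07), the stem cell factor receptor Kit (-0.83) and Irs2, the adaptor of the insulin receptor (-0.67). All 3 were also called without replicate 2 of the P9.5 Prlr+/+ group, and Igf1r, the receptor of insulin-like growth factor 1, was then called lower too (-0.70). The differences in Prlr-/- islets had the same sign, -0.57 each for Il6ra and Kit, which is 1.48-fold (adjusted p = 0.00786 and 0.0290 from limma), and -0.30 for Irs2 (adjusted p = 0.150 from limma). In pregnant Prlr-/- islets 2 were called higher, against 7.44% of all probe sets, the interferon receptor chains Ifnar1 (0.67) and Ifnar2 (0.87). In Prlr+/+ islets they were at 0.47 and 0.50 (adjusted p = 0.0525 and 0.00275 from limma), and none of the 20 was called between the genotypes or for the interaction. The growth hormone receptor Ghr, which Socs2 restrains, lay between 8.9 and 9.4 in all arrays and was not called.

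Of 14 other inhibitors of JAK and STAT, none was called in pregnant Prlr+/+ islets, against 5.73% of all probe sets called higher and 4.21% lower. There 7 had an unadjusted p under 0.05 from limma, a share that was not counted over all probe sets. In pregnant Prlr-/- islets the phosphatases Ptpn2 (0.80) and Dusp3 (0.60) were called higher, against 7.44% of all probe sets. In Prlr+/+ islets Ptpn2 was at 0.50 (adjusted p = 0.0166 from limma), a 1.41-fold change with no overlap of the stages, and Dusp3 was at -0.03 (adjusted p = 0.863 from limma). Without replicate 2 of the P9.5 Prlr+/+ group Cbl was called lower in Prlr+/+ islets (-0.65). Of 16 interferon target genes, 1 was called, Gbp3, which was higher in pregnant Prlr-/- islets (0.73), against 7.44% of all probe sets. In Prlr+/+ islets Gbp3 was at 0.57, a 1.48-fold change (adjusted p = 0.00904 from limma), and it was called there without replicate 2 of the P9.5 group (0.60).

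Other genes listed as known or proposed STAT5 targets moved in both directions. Of 14 measured, 2 were called higher and 2 lower in pregnant Prlr+/+ islets, against 5.73% and 4.21% of all probe sets. In pregnant Prlr-/- islets 1 was called higher, against 7.44%. At P9.5, 2 were called lower in Prlr-/- than in Prlr+/+ islets, against 0.206%, and 1 was called lower for the interaction, against 0.0788%. Tph2 is in both counts, and the study had already reported it lower in Prlr-/- islets at P9.5 on these arrays. Both counts are therefore not independent of that report. The median difference was -0.18 in pregnant Prlr+/+ islets. Myc, a driver of cell growth, and Tph2, an enzyme of serotonin synthesis, were called, like Cish and Socs2, both in pregnant Prlr+/+ islets and between the genotypes at P9.5.

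Myc was at 6.3, 6.1 and 6.6 in NP and 7.2, 7.5 and 7.9 in P9.5 Prlr+/+ islets, and at 6.7, 6.5 and 5.9 in NP and 6.1, 5.9 and 6.0 in P9.5 Prlr-/- islets. It was 2.89-fold lower in Prlr-/- islets at P9.5 (-1.53, standard error 0.218, adjusted p = 0.0117 from limma), a call lost without Prlr+/+ P9.5 replicate 2 (-1.55, adjusted p = 0.0541 from limma). Tph2 was at 4.8, 4.7 and 4.8 in NP and 7.2, 7.1 and 6.8 in P9.5 Prlr+/+ islets, and between 4.7 and 5.0 in all 6 Prlr-/- arrays. Its interaction was -2.23 (standard error 0.163, adjusted p = 0.000276 from limma). Bcl6, a transcriptional repressor, and the kinase Pim3 were called lower in pregnant Prlr+/+ islets (-1.13 and -0.60), and Bcl6 was called higher in pregnant Prlr-/- islets (0.77, adjusted p = 0.0397 from limma) with overlapping groups. Pim3 was at -0.47 in Prlr-/- islets, a 1.38-fold change (adjusted p = 0.00849 from limma), and fell under the minimum fold change in Prlr+/+ islets without replicate 2 of the P9.5 group (-0.55), whereas Bcl6 and the calls of Tph2 were kept.

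**Figure D4:**
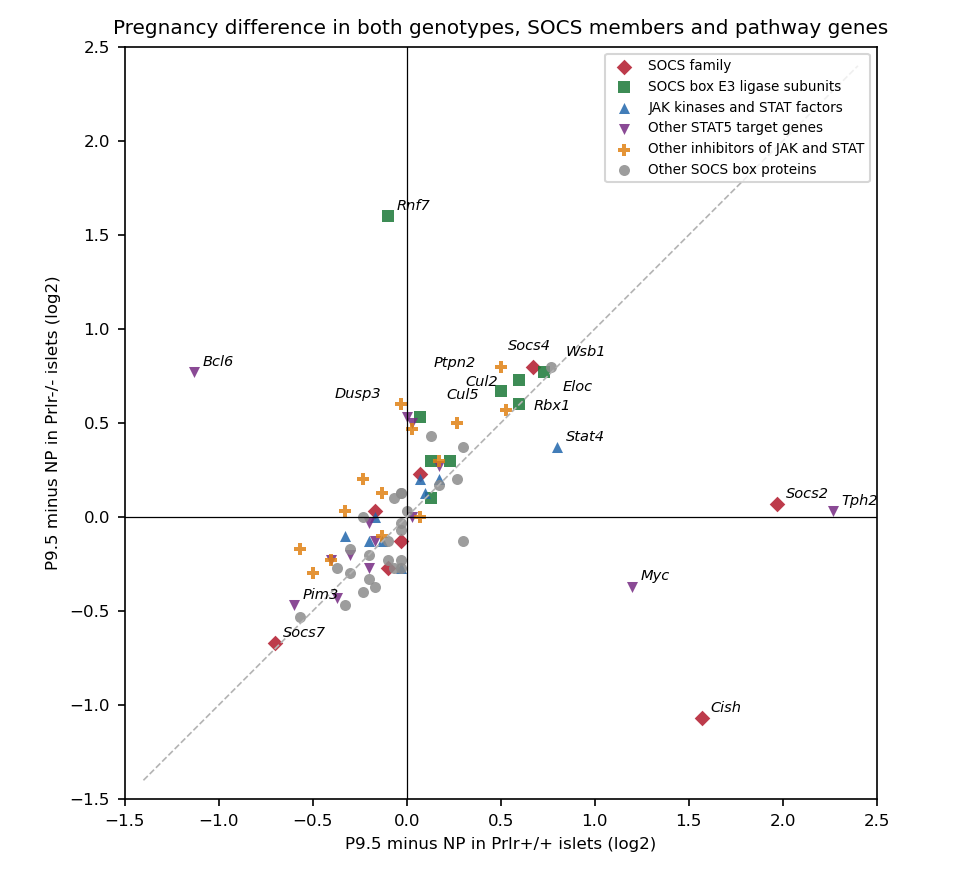
Difference between P9.5 and NP islets in Prlr+/+ (horizontal axis) against that in Prlr-/- mice (vertical axis), both on the log2 scale, with 1 point per gene of the SOCS family and of 5 related lists and a dashed line of equal differences. Socs4, Socs7 and the ligase subunits Eloc, Cul2 and Rbx1 lie near the line, whereas Cish (1.57 and -1.07), Socs2 (1.97 and 0.07), Myc and Tph2 lie far to its right.

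Of the 19937 other genes, the 5 closest to each of the 4 members that moved were named by the root mean square difference of the centred profiles over the 12 arrays. Closest to Socs2 were Hsbp1 (0.199), the water channel Aqp4 (0.222), Ivd (0.236), an enzyme of leucine breakdown, Rbmx2 (0.249) and Lonrf3 (0.253), where Socs2 itself had a root mean square of 0.793. No gene came as close to Cish, whose nearest were Myc (0.477), Ogdhl (0.574), Lonrf3 (0.599), Tph2 (0.601) and Slc2a13 (0.614), where Cish itself had 1.00. The nearest genes of Cish shared the peak in P9.5 Prlr+/+ islets, but their group means in P9.5 Prlr-/- islets lay closer to those of the NP groups than that of Cish did.

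Closest to Socs4 were Krr1 (0.0722), Terf1, Zfp654, Fxr1 and Kpna4 (0.0924), and closest to Socs7 were Furin (0.104), Susd6, Zfhx2, Cdcp1 and Zswim8 (0.112). Furin encodes a protease that processes secreted proteins and receptors, and its group means were 8.17 and 7.37 in NP and P9.5 Prlr+/+ islets and 7.90 and 7.37 in NP and P9.5 Prlr-/- islets. Likeness is over arrays that include the group differences, so it describes a shared pattern and nothing more. Promoter windows were at hand for 4 of the 5 nearest genes of Cish, and none of these held the STAT5 motif. Of the 4 windows among the nearest genes of Socs2, that of Ivd held it. As 8.30% of all windows held a match, so few windows decide nothing. The study, citing earlier work, reports putative STAT5 sites in the promoter of Tph2. It also reports at least 1 site in the promoters of Lonrf3 and Ivd, over stretches it does not give.

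**Figure D5:**
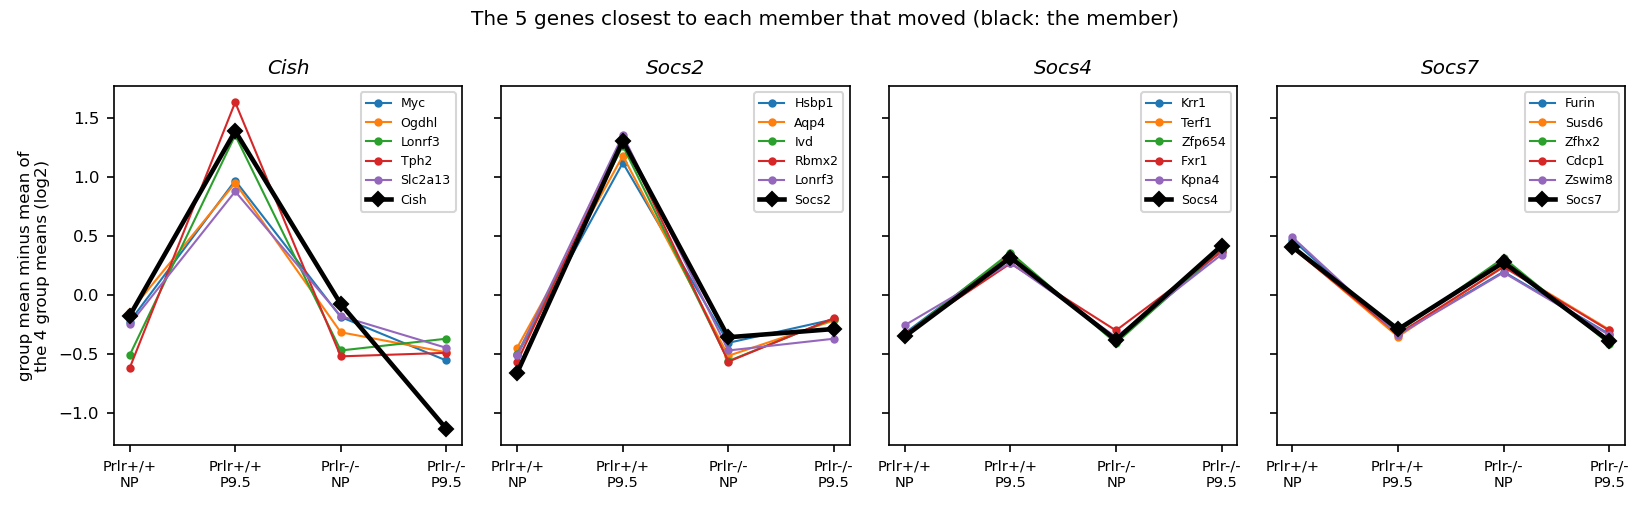
Group means on the log2 scale (vertical axis), each gene centred on the mean of its 4 group means, for Cish, Socs2, Socs4 and Socs7 (black) and their 5 nearest genes (coloured) in the 4 groups (horizontal axis). The genes near Socs2 follow its single peak in P9.5 Prlr+/+ islets, those near Cish share the peak but not its low mean in P9.5 Prlr-/- islets, and those near Socs4 and Socs7 separate the stages in both genotypes.

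Markers of other cells moved with some of these comparisons, and their part in the results was not tested. Of all probe sets, 5.73% were called higher and 4.21% lower in pregnant Prlr+/+ islets, and 7.44% and 7.09% in pregnant Prlr-/- islets. In pregnant Prlr-/- islets 10 of 14 acinar markers were called lower and 1 higher, with a median difference of -1.27. In pregnant Prlr+/+ islets 1 acinar marker was called higher, with a median of -0.53. No marker of the 8 cell type lists was called between the genotypes at P9.5, where 0.206% of all probe sets were called lower and 0.0253% higher. The difference there was positive for 10 of 10 endothelial markers (median 0.15) and negative for 11 of 11 macrophage and myeloid markers (median -0.13). The other lists held both signs. The mean of 10 endothelial markers lay between 7.65 and 8.04 over all arrays, and 2 were called lower in pregnant Prlr+/+ islets, Plvap and Eng (-0.67 each), and 2 higher in pregnant Prlr-/- islets, Tek (0.63) and Emcn (0.77). The interaction of the endothelial markers was positive for 10 of 10, with a median of 0.45, and none was called. Of these, 6 had an unadjusted p under 0.05 from limma, a share that was not counted over all probe sets. Without replicate 2 of the P9.5 Prlr+/+ group Tie1 was called lower as well in Prlr+/+ islets (-0.67). The mean of 9 stromal markers lay between 6.38 and 7.23 and that of 11 macrophage and myeloid markers between 5.60 and 6.01, of which Fcgr3 was called lower in pregnant Prlr-/- islets (-0.67) and C1qa higher in pregnant Prlr+/+ islets when that array was left out (0.70). The mean of 7 ductal markers lay between 6.79 and 7.29 and that of 7 lymphocyte markers between 4.70 and 5.21. Krt7 (-0.80) and Krt8 (-0.60) of the ductal markers were called lower in pregnant Prlr+/+ islets, Krt8 not without replicate 2 of the P9.5 group (-0.52), and Muc1 (-0.90) in pregnant Prlr-/- islets. Of 16 immediate early genes, Jun was called higher in both pregnancy comparisons (0.90 and 0.83), in Prlr+/+ islets not without replicate 2 of the P9.5 group (0.63, adjusted p = 0.116 from limma). Fos stood at 7.8 and 8.0 in replicate 2 of the P9.5 Prlr+/+ and P9.5 Prlr-/- groups, against 5.5 to 6.5 in the other 10 arrays. In both of these arrays Cish was the highest of its group (8.7 and 6.3), and Socs2 was in the middle of its group in the former (9.2) and the highest in the latter (7.6).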

How the data were processed

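RNA of collagenase-isolated islets was hybridised to 12 Affymetrix MoGene 1.0 ST arrays. The authors made log2 expression values by robust multichip analysis, and the deposited table holds 1 value per probe set and array, rounded to 0.1. A genome build for the probe sets is not given in the sources used here. Symbols came from the platform annotation, and 21698 of 21789 probe sets with 1 symbol were updated through the Entrez identifier.

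The values were fitted in R 4.3.3 with limma 3.58.1 (lmFit and eBayes), as 4 group means over all 35511 probe sets, with Benjamini-Hochberg adjustment over all of them. No pair of arrays held identical values. Arrays give no counts, and their number limits the precision.

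The members and lists were chosen with earlier results of these data known. The named genes are the 8 members, from each list the called genes or, where fewer than 4 were called, up to 4 with the largest difference, and the 5 genes nearest to a member whose group means spanned at least 1.5-fold. The replicate numbers were not used as pairs, since the methods of the study name no pairing. Deviations of arrays with the same replicate number correlated at -0.114 to 0.227, and at over 0.1 in 7 of 18 pairs. A fit with a replicate block is among the alternatives. The alternatives changed the groups fitted, the arrays, the filter, the scaling, the model and the fold change minimum. Use of the probe set with the second highest mean was added after seeing the data. Quantitative RT-PCR and other islets of the study were not analysed here.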

Additional observations from a re-analysis of the deposited data

Results flagged for a closer look

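The interaction of pregnancy and genotype for Socs2 was -1.90 on the log2 scale (adjusted p = 0.0171 from limma), since the difference between P9.5 and NP islets was 1.97 in Prlr+/+ and 0.07 in Prlr-/- mice and the test of the difference between them passed the threshold. All 3 pregnant Prlr+/+ arrays lay above the other 9. The pregnant Prlr-/- mice differ from the pregnant Prlr+/+ mice by the pellet as well as by the genotype, and these cannot be told apart.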

How the results depend on the processing

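The limits are those of 3 arrays per group, values rounded to 0.1 and a design in which the pellet goes with the pregnant Prlr-/- group. Over 25 settings, 109 counts of called members stayed within 1.5 times the reported count and 15 did not, and single values of members kept direction and call in 923 cases, lost the call in 30, gained it in 4 and changed sign in 35.
The replicate block left the counts within 1.5 times and lost only the Cish call in pregnant Prlr-/- islets (-1.07, adjusted p = 0.0538 from limma), as did the fit of only the groups compared (0.0763), quantile normalization (0.0642) and median centring (0.0736), which also took Socs7 under the fold change minimum there (-0.50).
The number of called members became 2 for the interaction with probe sets of 1 symbol only, where Cish passed (adjusted p = 0.00493 from limma), 1 in pregnant Prlr-/- islets with median centring, 2 in pregnant Prlr+/+ and 1 in pregnant Prlr-/- islets with a fold change minimum of 2, and 5 in pregnant Prlr-/- islets with the second probe set, which was chosen after seeing the data. Leaving out each array in turn gave 0 to 2 called for the interaction, 1 to 2 for the genotype at P9.5, 3 to 4 in pregnant Prlr+/+ and 2 to 3 in pregnant Prlr-/- islets. The interaction count was 0 without Prlr+/+ P9.5 replicate 1 or 2, replicate 1 of the NP or replicate 1 or 3 of the P9.5 Prlr-/- group, and 2 without Prlr-/- NP replicate 3. Of the counts of the other lists, 1952 stayed within 1.5 times and 156 did not.
Sign changes were among small values. With median centring Socs3 was at 0.03 in both pregnancy comparisons, and Socs1, Socs3 and Socs6 were at -0.07 between the genotypes in NP mice. With quantile normalization the pregnancy differences were -0.01 for Socs6 in Prlr+/+ and -0.03 for Socs2 and -0.10 for Socs5 in Prlr-/- islets, and the Socs7 interaction was -0.01. With array weights Socs4 was at 0.06 in NP mice and -0.03 for the interaction, and Socs7 at -0.01 for the interaction. In pregnant Prlr-/- islets Socs2 was at -0.08 by the mean of its probe sets and at -0.23 by the second, which put Socs6 at -0.17 in NP mice. Leaving out arrays gave, between the genotypes in NP mice, -0.22 to 0.57 for Cish, -0.03 to 0.12 for Socs1 and for Socs3, -0.15 to 0.15 for Socs4 and -0.02 to 0.10 for Socs6. It gave -0.10 to 0.05 for Socs3 in pregnant Prlr+/+ islets, -0.02 to 0.08 for Socs5 in pregnant Prlr-/- islets, -0.23 to 0.02 for Socs1 and -0.02 to 0.18 for Socs4 between the genotypes at P9.5, and -0.05 to 0.25 for Socs4 and -0.07 to 0.18 for Socs7 in the interaction. The cause was not tested.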
